A study of Mus musculus with 2 samples.

Results

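The 10 genes described here encode drug efflux pumps: 8 transporters of the ATP-binding cassette (ABC) superfamily (Abcb1a, Abcb1b, Abcc1, Abcc2, Abcc3, Abcc4, Abcc6 and Abcg2) and 2 multidrug and toxin extrusion (MATE) antiporters (Slc47a1 and Slc47a2). They were chosen by symbol, with gene identifiers matched to the GENCODE mouse annotation, and all 10 were found among 43346 gene rows. The tissue was adult kidney from a female C57BL/6J mouse aged 10 weeks, with no treatment or engineered allele in the labels. Polyadenylated RNA of 1 biological replicate was sequenced as 2 technical replicates, called library 1 and library 2 here, and the labels date the work on library 2 to May 2015. There was 1 group, so each SD below describes technical spread between 2 libraries and not variation between animals.

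ABC efflux pumps hydrolyse ATP to carry drugs, toxins and their conjugates across membranes, and MATE antiporters exchange organic cations for protons. In the kidney they act mainly in proximal tubule cells. Uptake carriers of the basolateral membrane bring organic ions in from the blood, and pumps of the apical brush border pass them into the urine. P-glycoprotein (Abcb1a and Abcb1b in the mouse), BCRP (Abcg2), MRP2 (Abcc2), MRP4 (Abcc4) and MATE1 (Slc47a1) are apical in this cell type. MRP1 (Abcc1), MRP3 (Abcc3) and MRP6 (Abcc6) are known as basolateral pumps, in this or other cell types. Whole kidney was sequenced, so fewer cells of a type and less RNA per cell cannot be told apart.

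Library 1 held 28263730 expected counts (estimated reads per gene) and library 2 held 20720537. Levels between genes are compared in TPM, which divides reads by transcript length and scales each library to the same sum. Mitochondrial genes and their nuclear copies on chromosome 1 took 74.5% of the TPM sum in library 1 and 36.5% in library 2. The 2 libraries also differed with the base composition of the transcripts, as described below. Of 8 proximal tubule markers, 7 reached TPM 1 in both libraries, and the 8 summed to 867 TPM in library 1 and 5771 TPM in library 2. By the test between the libraries described below, 4 of the 8 were higher in library 2, 2 were higher in library 1 and 2 were not called. That compares with 35.7% and 25.2% of all genes tested. Their median log2 ratio (library 2 over library 1) was 1.18, and -0.12 with the GC trend described below removed. Both markers of the thick ascending limb, the 2 of the distal convoluted tubule, 1 of 2 for principal cells and all 3 for intercalated cells also reached TPM 1 in both. So did all 3 podocyte markers, 7 of 8 endothelial, 3 of 5 stromal and mural, 2 of 5 leukocyte and 3 of 5 erythroid markers. The erythroid sum was 43.1 TPM in library 1 and 2408 TPM in library 2, at a median log2 ratio of 5.14, or 3.1 with the GC trend removed. For tissues that adjoin or could contaminate the kidney, 3 of 5 liver markers (sums of 9.27 and 61.7 TPM), 2 of 3 fat markers (24.6 and 77.8 TPM) and none of 4 adrenal markers (0.49 and 1.05 TPM) reached TPM 1 in both. Both libraries are technical replicates of 1 biological replicate, so sums that differ between them are not read as a difference in cell makeup. The part of these cell types in the pump levels was not tested.

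Abcg2 was the most abundant of the pumps, and its TPM was assigned almost wholly to transcript models of 1 of 3 annotated start regions. The gene lies on chromosome 6 of mm10 (chr6:58584523-58695676, plus strand), and the annotation places its starts in 3 regions, the first at chr6:58584523, the second at chr6:58595975-58596671 and the third at chr6:58640546-58640564. Transcripts of the third region made up 98.53% of the gene's TPM in library 1 and 99.12% in library 2, those of the second 0.85% and 0.66%, and the single transcript of the first was at 0 in both. The other 3 transcripts in the tables start farther inside the gene and held 0.62% and 0.22%. Starts are those of the reference M21, and the second region's share is that of Abcg2-201, a model of 2492 bases in the tables and 5717 in the reference, so its start in the tables may differ. Reads were assigned to annotated models, and start use was not measured. The only model of the first region, Abcg2-209, has 464 bases, and Abcg2-210 of the second has 348. Longer RNA from these starts could therefore be counted under other models. The 250 bases before the RefSeq start of each region (GRCm38.p6, plus strand) are shown because the deposited shares differ between the 3 annotated regions. Capitals mark each GC box, the motif GGGCGG on either strand, to which factors such as Sp1 bind.

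Region of the first start, chr6:58584283-58584532: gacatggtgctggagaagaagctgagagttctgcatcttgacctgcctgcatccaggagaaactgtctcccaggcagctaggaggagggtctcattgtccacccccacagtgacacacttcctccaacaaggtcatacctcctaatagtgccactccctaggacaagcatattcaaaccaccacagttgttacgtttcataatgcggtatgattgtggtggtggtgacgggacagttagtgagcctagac

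Region of the second start, chr6:58596422-58596671: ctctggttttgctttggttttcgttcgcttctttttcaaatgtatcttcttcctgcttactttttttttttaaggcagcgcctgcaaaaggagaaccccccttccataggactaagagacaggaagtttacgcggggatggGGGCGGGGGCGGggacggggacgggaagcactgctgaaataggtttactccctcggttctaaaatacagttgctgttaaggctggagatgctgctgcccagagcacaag

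Region of the third start, chr6:58640296-58640545: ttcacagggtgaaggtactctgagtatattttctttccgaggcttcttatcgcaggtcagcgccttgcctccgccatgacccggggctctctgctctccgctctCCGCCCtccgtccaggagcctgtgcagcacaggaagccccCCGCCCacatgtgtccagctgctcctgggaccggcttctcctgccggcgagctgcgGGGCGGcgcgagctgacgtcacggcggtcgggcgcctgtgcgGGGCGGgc

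The window before the third region had 67.6% GC, 23 CpG dinucleotides and 4 GC boxes. The window before the second had 50% GC, 10 CpG and 2 GC boxes, and that before the first had 51.2% GC, 3 CpG and 0 GC boxes. Among 32841 promoter windows of the same length, 32.7% held a GC box. None of the 3 windows held a TATA box (TATAAA, found in 12.4% of windows), a dioxin response element core (GCGTG, 28.2%) or an antioxidant response element core (TGACNNNGC, 10.2%), each searched on both strands. These matches describe the letters of the windows only, and factor binding was not measured.

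BCRP, the product of Abcg2, exports urate and many sulfated compounds and drugs. Abcg2 (ENSMUSG00000029802.9) stood at 229.63 TPM in library 1 and at 254.31 TPM in library 2, with a mean of 242 ± 17.5 TPM (SD, n = 2 libraries). It was the first of the 10 pumps in both libraries and ranked 305th of all genes by mean TPM, at the 98.5th percentile of genes with any TPM. Abcg2 alone held 49.6% of the summed TPM of the 10 pumps in library 1 and 41.8% in library 2. The coding transcript Abcg2-202, of 2178 bases, carried 95.31% and 95.28% of the gene, so the makeup of this gene was nearly equal in both libraries. Of the 7 pumps with several transcripts at TPM 1 or more, it had the smallest shift in transcript shares, at percentile 7.72 of 6914 genes.

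**Figure D1:**
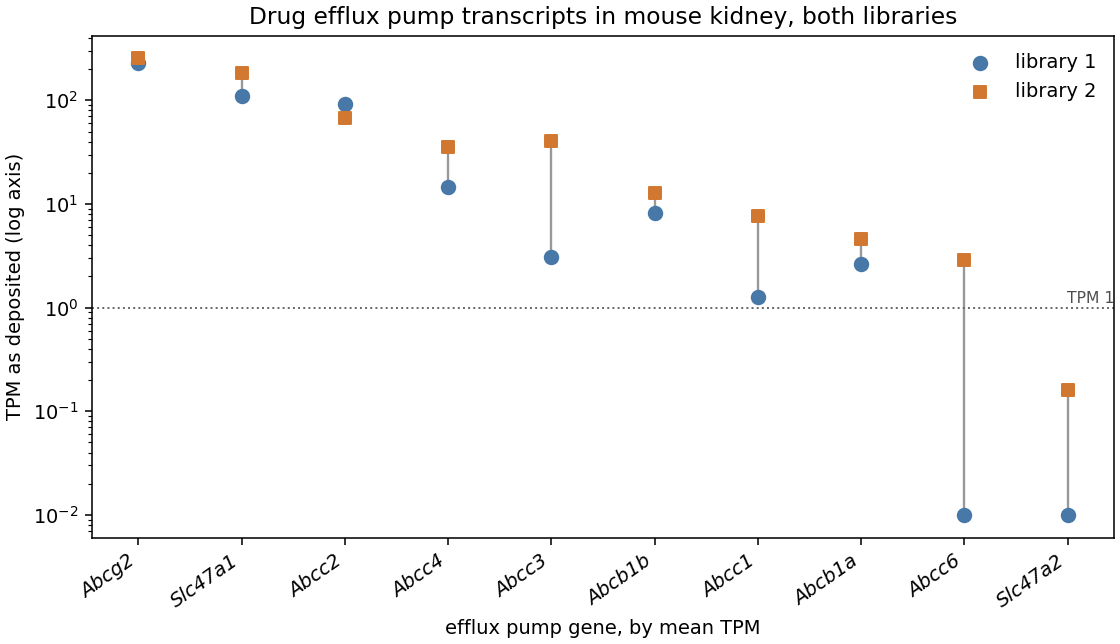
Deposited TPM (log axis) of each of the 10 efflux pump genes, ordered by mean TPM, with circles for library 1, squares for library 2 and a line joining the pair; the dotted line marks TPM 1. Abcg2 (229.63 and 254.31 TPM) is at the top in both libraries, while Abcc6 and Slc47a2 are near 0 in library 1.

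Slc47a1 encodes MATE1, which passes cationic drugs such as metformin from the proximal tubule cell into urine. Slc47a1 (ENSMUSG00000010122.10, chr11:61343401-61378345, minus strand) had 110.92 TPM in the first library and 183.9 TPM in the second, a mean of 147 ± 51.6 TPM (SD, n = 2), second among the pumps in both. Its leading transcript Slc47a1-201 took 96.35% and 87.72% of the gene. The neighbour Slc47a2, for MATE2, lies 540 bases away on the same strand (chr11:61301631-61342860). Slc47a2 (ENSMUSG00000069855.5) had 1 count in library 1 and 5 counts in library 2, or 0.01 and 0.16 TPM. It was the only one of the 10 with too few counts to be tested, and the log2 ratio (library 2 over library 1) of 1.52 had a 95% counting interval from -1.29 to 7.43. Of the 5 counts in library 2, 4 were given to Slc47a2-201 and 1 to Slc47a2-202, shares of 70.59% and 29.41% that rest on single reads. Its posterior mean TPM was 0.39 and 0.81.

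Abcc2 and Abcc4 encode the apical pumps MRP2, which exports glutathione and glucuronide conjugates, and MRP4, which exports cyclic nucleotides, urate and antiviral drugs. Abcc2 (ENSMUSG00000025194.5, chr19:43782192-43840740, plus strand) had 92.36 and 66.94 TPM, library 1 given first here and below, or 79.7 ± 18 TPM (SD, n = 2), and was the one pump with a lower deposited TPM in library 2. Abcc4 (ENSMUSG00000032849.9, chr14:118482692-118706219, minus strand) had 14.45 and 35.39 TPM, or 24.9 ± 14.8 TPM (SD, n = 2). In TPM, Abcc2 stood 6.39 times as high as Abcc4 in library 1 and 1.89 times as high in library 2. In expected counts the same ratios were 2.9 and 1.91, so transcript length enters the TPM ratio of library 1 more than that of library 2.

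The reads of Abcc2 were shared out among its transcripts in another way in each library. The full coding transcript Abcc2-201, of 8027 bases and 32 exons, made up 23.57% of the gene's TPM in library 1 and 66.72% in library 2 (21.77 and 44.67 TPM). Abcc2-203, a retained-intron transcript of 607 bases, made up 43.28% and 6.36% (39.98 and 4.26 TPM, from 512 and 29.2 expected counts). Abcc2-202, a coding model of 1926 bases that lies whole inside exon 32 of Abcc2-201, took 22.93% and 14.51%, and the retained-intron transcript Abcc2-204 took 10.22% and 12.4%. All retained-intron transcripts of Abcc2 summed to 53.5% in library 1 and 18.76% in library 2. Over 3772 genes with an annotated retained-intron transcript the median share was 2.05% and 2.15%, which put Abcc2 at the 92nd and the 87.7th percentile.

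Abcc2-203 overlaps exons 4 to 7 of the full transcript, with 531 of its 607 bases inside them. Its first 115 bases (chr19:43797986-43798100, mm10, plus strand) are shown because they hold the intron stretch that sets it apart, with 75 intron bases in lower case and the first 40 bases of the exon that follows in capitals.

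Abcc2-203 start: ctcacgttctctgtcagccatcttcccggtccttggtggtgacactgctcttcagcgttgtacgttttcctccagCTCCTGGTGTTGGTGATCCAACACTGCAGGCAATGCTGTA

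With every read of Abcc2 set over the length of Abcc2-201, an alternative chosen after seeing the data, the level was 29.02 TPM in library 1 and 47.44 TPM in library 2. The order of the libraries was then the opposite of that in the deposited TPM, and the mean fell from 79.7 to 38.2 TPM. Abcc2 stayed the third of the 10 pumps in both libraries. For the other 9 pumps the same step moved the mean TPM by less than the SD between the libraries. Fixed-length levels keep the deposited scaling, in which mitochondrial genes and their copies took 74.5% and 36.5% of the sum. They do not settle which library was higher for Abcc2. The log2 ratio of its counts (library 2 over library 1), scaled as described below, was -0.65.

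**Figure D2:**
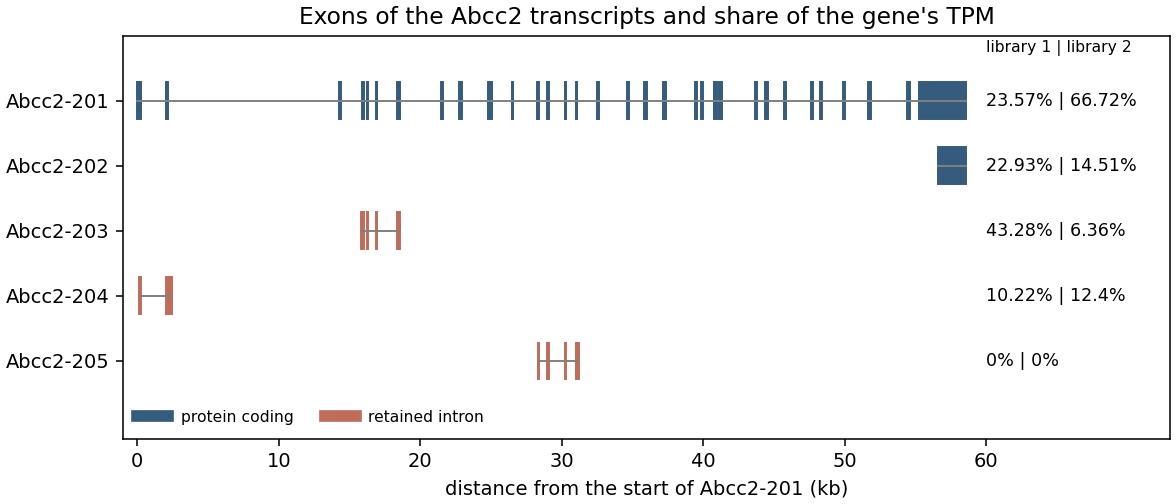
Exons (boxes) of the 5 annotated Abcc2 transcripts by distance from the start of Abcc2-201 in kb, blue for protein coding and red for retained intron, with the share of the gene's TPM in library 1 and library 2 at the right. The short Abcc2-203 takes 43.28% in library 1 and 6.36% in library 2, and the full Abcc2-201 takes 23.57% and 66.72%.

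Abcc4 and Abcc3 also differed in makeup between the libraries in the deposited shares. Abcc4-201, with 31 exons, made up 46.02% of the gene in library 1 and 86.9% in library 2, and Abcc4-202, with 30 exons and nearly the same start, made up 53.98% and 13.1%. In library 1 their deposited credibility bounds overlapped (5.18 to 8.18 and 5.81 to 8.93 TPM), so the leading one there was not resolved. Both are coding and of like length (5729 and 5504 bases), and with all reads set over Abcc4-201 the gene stood at 14.1 and 35.2 TPM. In Abcc3 the coding transcript Abcc3-206 held 95.44% and 55.55%, the coding Abcc3-201 0% and 23.19%, and the short noncoding Abcc3-203 0% and 20.93%. The posterior mean TPM, a second estimate in the same tables, gave Abcc3-206 65.97% and 54.82% and Abcc3-203 2.79% and 20.87%. In that estimate Abcc3-201 held 20.9% and 22.58%, so its rise from 0% is not seen there. By deposited share, the leading transcript differed between the libraries in 2 of 7 pumps (Abcc2 and Abcc4), beside 33.1% of 6914 genes with several transcripts at TPM 1 or more in both. The largest shift in share stood at the 73.8th percentile of those genes for Abcc2, the 71.7th for Abcc4 and the 70.7th for Abcc3.

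**Figure D3:**
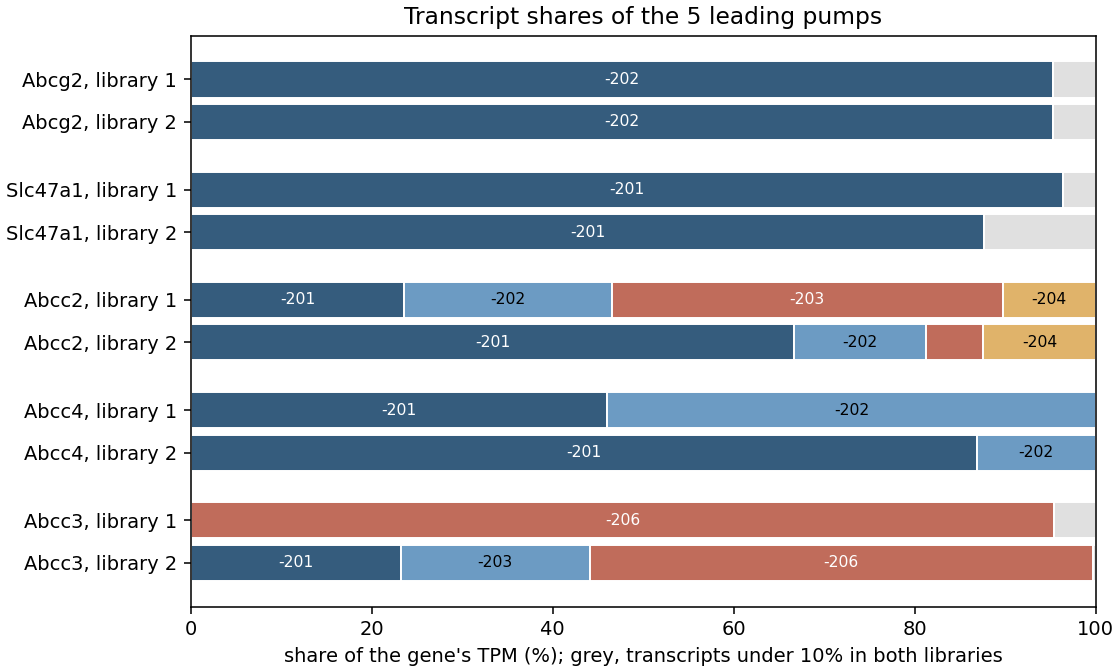
Share of each gene's TPM (%) held by its transcripts in library 1 and library 2 for the 5 pumps of highest mean TPM, labelled by transcript number, with transcripts under 10% in both libraries in grey. Abcg2-202 holds 95.31% and 95.28%, whereas the leading transcripts of Abcc2 and Abcc4 differ between the libraries. For Abcc4 the deposited bounds of the 2 transcripts overlap in library 1.

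The P-glycoprotein genes export hydrophobic drugs, and the mouse has a pair where humans have ABCB1 alone. Abcb1b (ENSMUSG00000028970.5, chr5:8798147-8866315, plus strand) had 8.24 and 12.68 TPM, or 10.5 ± 3.14 TPM (SD, n = 2). Abcb1a (ENSMUSG00000040584.8, chr5:8660077-8748575, plus strand), the form known from the blood-brain barrier endothelium, had 2.62 and 4.55 TPM, or 3.59 ± 1.37 TPM (SD, n = 2). Abcb1b stood 3.15 times as high as Abcb1a in library 1 and 2.79 times in library 2, and the ranges of the 2 genes did not overlap. The endothelial marker list, a cell type in which Abcb1a is known, summed to 105 and 335 TPM, and its part in the Abcb1a level was not tested.

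The pair lies 49.6 kb apart and the coding sequences are 88% identical over 3819 aligned bases. Exact runs of at least 30 bases covered 42.7% of either coding sequence, and the longest was 338 bases. Part of that run and its 3' border are shown because reads that fall inside it cannot be told apart by sequence. The stretch runs from coding position 1564 to 1739 in Abcb1a-201 and from 1573 to 1748 in Abcb1b-201, begins just before the codons of the ABC signature motif, and has capitals at the 1 base that differs.

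Abcb1a-201: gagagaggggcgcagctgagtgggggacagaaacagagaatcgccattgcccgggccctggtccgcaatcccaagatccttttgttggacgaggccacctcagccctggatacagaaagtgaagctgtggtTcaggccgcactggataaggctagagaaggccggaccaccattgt

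Abcb1b-201: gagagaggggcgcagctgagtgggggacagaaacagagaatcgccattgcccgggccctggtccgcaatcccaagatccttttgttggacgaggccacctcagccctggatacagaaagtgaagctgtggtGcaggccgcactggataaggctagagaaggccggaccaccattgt

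Stretches of at least 50 bases shared exactly with other genes, on either strand, covered 31.2% of the Abcb1a transcript and 35.3% of that of Abcb1b, mostly from the partner (28.1% and 32.6%). In the other 8 pumps they covered 0.922% of Abcc2 and 0% of 7. The counts of the pair were therefore estimates: 388.75 and 353.13 for Abcb1a, 1056.25 and 866.87 for Abcb1b. The deposited posterior SD of each gene's count was 1.13 in library 1 and 3.62 in library 2, and it was 0 for the other 8 pumps. Exons of Abcb1a also overlap the antisense gene Gm42686 over 553 bases, and those of Abcb1b overlap the antisense Gm5106 over 143 bases. The labels and files read here do not say whether strand was used in counting.

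In TPM, the order of this pair depended on which deposited estimate was read. In expected counts Abcb1b stood 2.72 times as high as Abcb1a in library 1 and 2.45 times in library 2. The posterior mean TPM gave Abcb1a 15.58 and 23.43 TPM and Abcb1b 8.02 and 11.98 TPM. In that estimate 82.58% and 80.39% of Abcb1a went to Abcb1a-204, a noncoding transcript of 129 bases with 0 expected counts and an effective length of 2.45 and 3.04 bases. The deposited credibility bounds of Abcb1a were accordingly wide, from 2.48 to 41.3 TPM in library 1 and from 4.12 to 61.3 TPM in library 2.

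Abcc3, Abcc1 and Abcc6 encode the basolateral pumps, which return their substrates toward the blood: MRP3 carries glucuronides, MRP1 glutathione conjugates and leukotriene C4, and MRP6 is the protein lost in pseudoxanthoma elasticum. Abcc3 (ENSMUSG00000020865.12, chr11:94343295-94392997, minus strand) had 3.05 and 40.37 TPM, or 21.7 ± 26.4 TPM (SD, n = 2). Abcc1 (ENSMUSG00000023088.12, chr16:14361558-14475737, plus strand) had 1.27 and 7.65 TPM, or 4.46 ± 4.51 TPM (SD, n = 2). Abcc6 (ENSMUSG00000030834.5, chr7:45967555-46030302, minus strand) had 0.01 and 2.87 TPM, from 2 counts in library 1 and 173 counts in library 2. All 3 were low in library 1, and the SD exceeded the mean for each. Abcc1-201 led Abcc1 with 90.99% and 95.63%, or 53.38% and 76.22% by posterior means. Abcc6-201 held 100% and 74.39% of Abcc6, and a transcript of 492 bases with no name in the reference held 0% and 17.51%, from 0 and 2.49 expected counts. By posterior means Abcc6-201 held 10.96% and 66.57% and the 492-base transcript 58.27% and 22.6%, so the direction of both shares turned with the estimate.

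Slc47a2 was grouped with the apical pumps here, and membrane side was not measured for any pump. The 7 apical pumps summed to 458 TPM in library 1 and 558 TPM in library 2, which was 99.1% and 91.6% of all pump TPM. The 3 basolateral pumps summed to 4.33 and 50.9 TPM. Their transcripts had 51.2% (Abcc1), 54.2% (Abcc3) and 59% GC (Abcc6), and those of the apical pumps from 43.2% (Abcg2) to 55.6% (Slc47a2). Genes above 50% GC were mostly lower in library 1, as given below. The part of base composition in these sums and in the order of the pumps was not tested. By mean TPM the order was Abcg2, Slc47a1, Abcc2, Abcc4, Abcc3, Abcb1b, Abcc1, Abcb1a, Abcc6 and Slc47a2. The library ranges of neighbours in this order did not overlap for Abcg2 and Slc47a1, Slc47a1 and Abcc2, Abcc2 and Abcc4, or Abcb1b and Abcc1. With one fixed length, Abcc2 (29.02 to 47.44 TPM) and Abcc4 (14.1 to 35.2 TPM) overlapped, and by posterior means Abcb1b (8.02 to 11.98 TPM) and Abcc1 (2.09 to 8.88 TPM) did. With mitochondrial genes and their copies left out of the sum, Slc47a1 (290 to 435 TPM) overlapped both Abcg2 (401 to 902 TPM) and Abcc2 (106 to 363 TPM). In deposited TPM the other 5 neighbouring pairs overlapped. Of these, Abcb1a stood above Abcc6 within each library (2.62 against 0.01 TPM and 4.55 against 2.87 TPM). The order turned between the libraries for Abcc4 and Abcc3, Abcc3 and Abcb1b, and Abcc1 and Abcb1a. Abcc6 and Slc47a2 were equal in library 1, at 0.01 TPM. Apart from Abcb1a over Abcc6, those places were not set apart from the spread between libraries. Of the 10 pumps, 8 reached TPM 1 in both libraries, Abcc6 did so in library 2 alone, and Slc47a2 in neither.

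The only difference that the design lets be tested is that between the libraries. With library sizes scaled by TMM (edgeR), a two-sided exact binomial test on rounded counts called 9465 of 15553 genes (60.9%) at an adjusted p under 0.05 and at least 2-fold. It compares 2 libraries and covers counting error only, with no replicate check. Of the 9 pumps tested, 4 were called, 3 of them higher in library 2 (35.7% of all genes tested) and 1 higher in library 1 (25.2%). The median log2 ratio of library 2 over library 1 was -0.60 over the 9 pumps and 0.12 over all genes tested. The share of pumps called was not above the background.

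All 3 basolateral pumps were called higher in library 2, as were 35.7% of all genes tested. The log2 ratio was 2.11 for Abcc3 (95% counting interval 1.96 to 2.26), 1.27 for Abcc1 (1.07 to 1.49) and 5.71 for Abcc6 (4.10 to 9.04, from 2 counts in library 1). Their transcripts had 54.2%, 51.2% and 59% GC, in the same order. These 3 pumps were not called with the GC trend described below removed. The part of membrane side in these calls was not tested. Abcg2 was called higher in library 1, with a log2 ratio of -1.22 (-1.26 to -1.18), although its deposited TPM was higher in library 2. With total counts in place of TMM the Abcg2 ratio was -0.32 and not called, and 3 of the 9 pumps were called beside 54% of all genes tested. TMM and total counts set the libraries 0.90 apart on the log2 scale, and under total counts 91.4% of all calls were higher in library 2, against 58.7% under TMM.

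The other 5 pumps tested were not called. Slc47a1 had a log2 ratio of -0.68, Abcc2 of -0.65, Abcb1b of -0.74 and Abcb1a of -0.60, each past the adjusted p of the exact test (at most 3.5e-08) but within 2-fold. By the adjusted p alone, 8 of the 9 pumps passed, beside 84.1% of all genes tested. Under total counts the 4 ratios just named were above 0 (0.22, 0.25, 0.16 and 0.31). Abcc4 had a ratio of -0.05 (-0.12 to 0.03, adjusted p = 0.26, exact test). In deposited TPM 9 of the 10 pumps were higher in library 2. With mitochondrial genes and their copies left out of the TPM sum only 4 were, and Abcg2 then stood at 902 TPM in library 1 and 401 TPM in library 2. Within a library that step scales all genes alike and leaves the order of the pumps as it was.

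The ratios of the pumps followed the GC content of their transcripts. Among genes with at least 100 counts, the median log2 ratio was -1.36 at 40 to 45% GC, -0.50 at 45 to 50%, 1.04 at 50 to 55% and 3.8 above 55%. Abcg2, at 43.2% GC, was the lowest in GC among the pumps and the only one called higher in library 1. Abcc1 (51.2%), Abcc3 (54.2%) and Abcc6 (59%) were called higher in library 2. Within bins of 1% GC, 7 of the 9 tested pumps lay inside the middle 50% of genes. Abcb1a was above it, at -0.60 against an upper quartile of -0.65.

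Slc47a1 was below the middle 50% of its bin, at -0.68 against a lower quartile of -0.09 and a median of 0.32. With the smooth GC trend removed, 0 of the 9 tested pumps were called by the exact test, against 22.3% of the 14737 genes with a GC value, and 4 were called without that step. Ratios with the trend removed were -0.91 for Slc47a1, 0.07 for Abcg2, 0.18 for Abcc3, 0.69 for Abcc1 and 1.47 for Abcc6. Base composition and the library cannot be told apart as the source of a pump's ratio in this design.

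**Figure D4:**
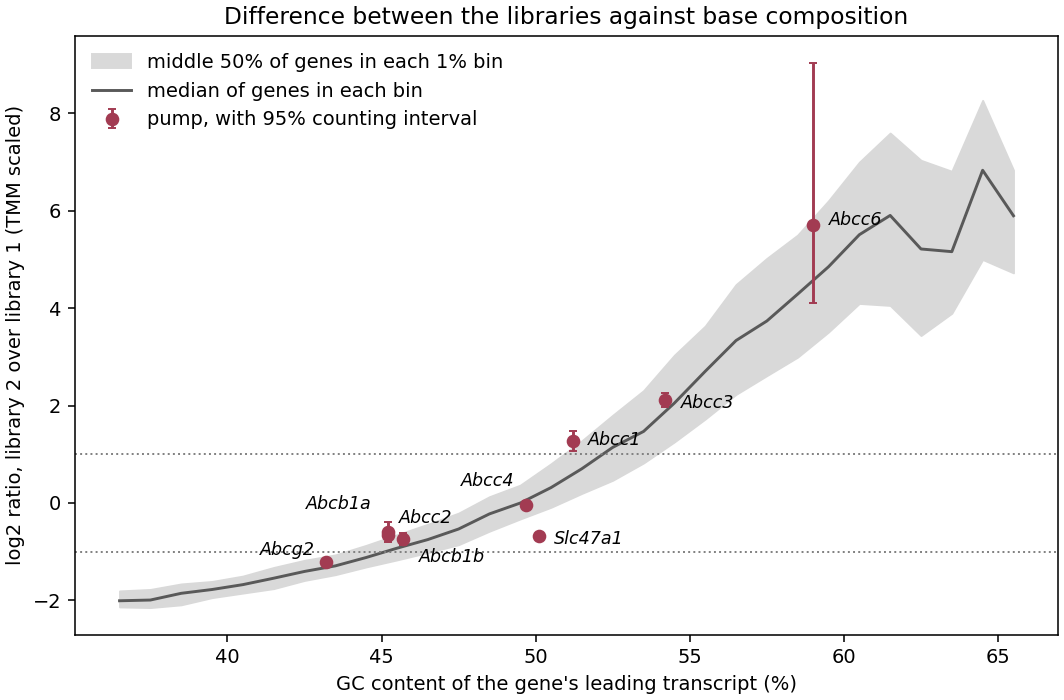
Log2 ratio of library 2 over library 1 (TMM scaled) against the GC content (%) of the gene's leading transcript for the 9 tested pumps, with 95% counting intervals; the line and band give the median and middle 50% of genes in each 1% bin, and dotted lines mark 2-fold. The pumps follow the line from Abcg2 at 43.2% to Abcc6 at 59%, and Slc47a1 lies below the band.

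Most ABC relatives of the pumps were at low levels. Of 14 relatives in subfamilies B, C and G, 3 had TPM 1 or more in both libraries and 9 were below it in both. By mean TPM over the libraries they were led by Abcc5, an exporter of cyclic nucleotides, at 7.56 and 19.27 TPM, then Abcc9, a regulatory subunit of potassium channels, at 2.39 and 3.68 TPM, and the cholesterol exporter Abcg1 at 0.76 and 3.61 TPM. Abcb5 had 0 counts in both libraries, which allows up to 3 counts in each. Of 7 tested relatives, library 2 was the higher in 1 called gene and library 1 in 2, beside 35.7% and 25.2% of all genes tested. Their median log2 ratio was -0.59. Abcg2 stood above every one of the 45 other ABC genes in both libraries.

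Of the remaining 31 ABC genes, 14 reached TPM 1 in both libraries. The peroxisomal fatty acid transporter Abcd3 had 163.26 and 168.66 TPM, the lipid transporter Abca3 4.51 and 99.52 TPM, and the ribosome recycling factor Abce1 45.3 and 34.13 TPM. Abca12, Abca15 and Abca16 had 0 counts in both libraries. Of 27 tested, 14 were called with library 2 as the higher and 10 with library 1, beside 35.7% and 25.2% of all genes tested. Their median log2 ratio of 1.58 became -0.02 with the GC trend removed.

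**Figure D5:**
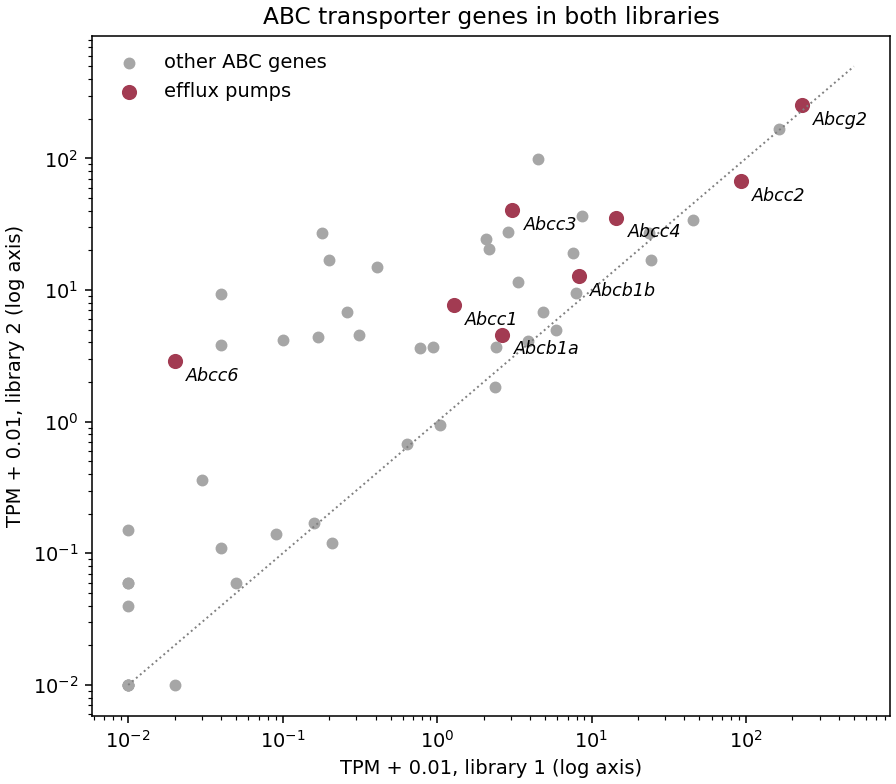
TPM + 0.01 of ABC transporter genes in library 1 (x, log axis) and library 2 (y, log axis), with the 8 ABC efflux pumps in red and the 45 other ABC genes in grey; the dotted line marks equal values. Abcg2 lies at the upper right above all other ABC genes, and Abcc6 lies far to the left of the line.

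Transcripts of uptake carriers and anchoring partners of the pumps were present in both libraries. All 8 listed uptake carriers of organic ions reached TPM 1 in both libraries, and their membrane side was not measured. Among them, the organic anion transporter Slc22a8 had 23.6 and 206.62 TPM and Slc22a7 had 2.3 and 137.18 TPM. Calls among these 8 put 5 higher in library 2 and 1 lower there, against 35.7% and 25.2% of all genes tested. The median log2 ratio of 1.29 was 0.81 with the GC trend removed. All 6 apical scaffold proteins, which anchor transporters in the brush border, also reached TPM 1 in both. Pdzk1 stood at 112.36 and 621.15 TPM, Ezr at 44.86 and 181.67 TPM, and Rdx at 80.49 and 69.97 TPM. Calls put 3 of the 6 higher in library 2 and 1 lower there, and the median ratio of 0.86 became -0.42 with the trend removed.

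Of 13 regulators, transcription factors known to act on efflux pump genes together with Keap1, 10 reached TPM 1 in both libraries. Hnf4a, a factor of proximal tubule identity, had 34.24 and 223.72 TPM. Nfe2l2, the factor NRF2 that answers electrophiles, had 52.53 and 72.77 TPM, and the vitamin D receptor Vdr had 20.53 and 87.13 TPM. Calls put 5 of the 13 higher in library 2 and 2 lower there, against 35.7% and 25.2% of all genes tested. Their median log2 ratio was 0.69, and -0.05 with the GC trend removed. Among 18 enzymes that make glutathione or conjugate drugs, 16 reached TPM 1 in both. Gsta2, a glutathione transferase, had 525.09 and 1143.31 TPM, the glucuronosyltransferase Ugt1a2 had 426.21 and 716.65 TPM, and Gstm1 had 13.48 and 412.02 TPM. Calls put 5 of the 18 higher in library 2 and 4 lower there, at a median log2 ratio of -0.04, against 0.12 for all genes tested. That median turned to 0.45 with the GC trend removed and to 0.86 under total counts.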

How the data were processed

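Polyadenylated RNA of 1 kidney sample was sequenced in 2 technical libraries. Per the labels, RNA was extracted with the RNeasy Lipid Tissue Mini Kit. Gene and transcript tables use mm10 and annotation release M4, per the text deposited beside the files. An aligner or quantifier is named nowhere in the sources used here. Expected counts (estimated reads, not normalized), TPM (per effective length and scaled to a fixed sum), posterior means, credibility bounds of unstated level and the percent of each transcript in its gene were deposited, per the file headers.

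GENCODE M21, on the same assembly, supplied symbols, coordinates and biotypes by identifier. Promoter windows came from RefSeq (GRCm38.p6) and were found for 6 of the 10 genes. Rounded expected counts were scaled by TMM (edgeR 4.0.16) and tested between the libraries with a two-sided exact binomial test (scipy 1.17.1) over genes with at least 10 counts, with Benjamini-Hochberg adjustment. A call needed an adjusted p below 0.05 and at least 2-fold (log2 ratio of 1 either way), with a prior count of 0.5. With 1 library a side no dispersion could be estimated. Intervals cover counting error only. For the GC trend, lowess (statsmodels 0.14.6, span 20%) was fitted to genes of 100 counts or more. Shared stretches were exact matches of 50 bases on either strand. The exact test was run on simulated counts with counting error only, few changed genes and no GC trend. The GC step was run on simulated log2 ratios to which a linear GC trend was added. These checks cover the working of the steps and not libraries that differ as these do.

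All pumps, the 3 most abundant genes of each partner list, genes at 0 counts and transcripts at 10% or more of a pump were named. One gene that this rule selects is not reported here. The genes and lists were chosen with earlier results of these data known. Alternatives were DESeq2 1.42.0 size factors, total counts, posterior means, other filters, thresholds and priors, GC removal and leaving out a library.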

Additional observations from a re-analysis of the deposited data

How the results depend on the processing

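The count of pumps at TPM 1 or more in both libraries (8) stayed between 7 and 9 under 7 alternatives, including the level with one fixed transcript length, which was chosen after seeing the data. Without replicate 1 it was 9 and without replicate 2 it was 8. The count of pumps called between the libraries (4) was 8 with the adjusted p alone, 2 with a fold threshold of 4 and 0 with the GC trend removed. It was 3 or 4 under the other 5 alternatives. Over all genes tested, 9465 calls became 3286 of 14737 with the GC trend removed and 4706 with a fold threshold of 4.

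Single ratios changed sign in 11 of 60 cases under the 6 alternatives that recompute them. Under total counts, Abcb1a was at 0.307, Abcb1b at 0.163, Abcc2 at 0.25, Abcc4 at 0.857 and Slc47a1 at 0.221. With the GC trend removed, Abcb1a was at 0.369, Abcb1b at 0.138, Abcg2 at 0.067, Abcc2 at 0.315 and Slc47a2 at -0.74. Without a filter on low counts, Abcc4 was at 0.003. List medians changed sign under total counts for the ABC relatives (0.263) and the conjugating enzymes (0.86). With the GC trend removed they did so for the rest of the ABC superfamily (-0.0183), the regulators (-0.05), the scaffold proteins (-0.416) and the conjugating enzymes (0.453). The cause of these changes was not tested. Mean TPM of Abcb1a was 3.59 as deposited and 19.5 from posterior means, and that of Slc47a2 was 0.085 and 0.6. Posterior means also moved the mean share of the leading transcript by more than its SD in 5 pumps, to 16.7% for Abcb1a, 94.2% for Abcg2, 64.8% for Abcc1, 38.8% for Abcc6 and 11.8% for Slc47a2. Leaving out a library gives no ratio between libraries. No paired analysis was possible because there is 1 group. Depth limits Abcc6 in library 1 (2 counts) and Slc47a2 in both (1 and 5 counts).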
